A study of Rattus norvegicus with 12 samples.

Results

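The genes described here are 10 genes that mark the basal and myoepithelial cells of the mammary gland, followed in whole lumbar mammary glands of young female rats. They are the keratin genes Krt5, Krt14 and Krt17, the transcription factor gene Tp63, the oxytocin receptor gene Oxtr, and the smooth muscle genes Acta2, Myh11, Cnn1, Mylk and Tagln. They were chosen by name, and every gene probe carrying 1 of these names was taken, which gave 10 of the 26456 gene names on the array and 13 of its 30367 gene probes. All 13 probes were printed on 2 spots each. All 10 genes entered the tests, since their probes were well above background on 12 of 12 arrays, or on 11 in the case of Oxtr.

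The animals were female Wistar offspring whose mothers were fed a low protein (LP, 8.8% protein) or a normal protein (NP, 17.0% protein) diet throughout pregnancy, with standard chow given during lactation and after weaning and litters cut to 6 females at birth. The lumbar gland (4th and 5th pair) was taken at day 21 or day 28 of life, freed of visible lymph nodes and snap-frozen, and total RNA of 1 rat was hybridised to each of 12 single-colour Agilent arrays. There were 3 LP and 3 NP arrays at each day, named here by the replicate codes of the samples (NP 4a, 5a, 6a and LP 4a, 6a, 7c at day 21, NP 4f, 5f, 6f and LP 4f, 6f, 7f at day 28). The labels do not say whether rats of a group were littermates, so that p-values measure the spread between these samples only. Each day had a slide of its own that held both diets, and an effect of the day cannot be told apart from one of the slide, whereas LP and NP were compared within a slide. The comparisons of diets and of days share samples, and are not independent of each other. Values are log2 signals relative to the 75th percentile of the gene spots of the array. A value of a probe can be compared between arrays, but not with the value of another probe.

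The ducts of the mammary gland are built of an inner luminal and an outer basal layer. The basal cells carry the keratins 5, 14 and 17 and the transcription factor p63, which is needed for stratified and glandular epithelia, and they contract like smooth muscle when oxytocin reaches their receptor and so move milk along the ducts. The contractile genes of this layer are also used by the smooth muscle of blood vessels, whereas the keratins are epithelial. In whole gland, fewer cells of a type and less RNA per cell cannot be told apart.

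The share of gene spots well above background ran from 74.8% to 79.6% over the arrays, with 0 saturated spots. The duplicate spots of the 13 probes differed by at most 0.362 on the log2 scale on any array. The array of LP 6a at day 21 had the lowest median correlation with the other arrays over all tested probes (0.96), followed by NP 4f at day 28 (0.974), while the other 10 lay between 0.981 and 0.989. These 2 arrays also held most of the extreme values of the genes described here. LP 6a was the highest of all 12 arrays for 9 of the 10 genes, and NP 4f the lowest for 7. The differences between the diets and days are therefore also given without these arrays, for the keratins, for the smooth muscle genes and for the other lists of genes whose values they shifted most.

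Krt5 and Krt14 encode the keratin pair of the basal layer of stratified and glandular epithelia. The log2 signal of Krt14 (probe placed at chr10:89144454-89145130 of rn4, minus strand, a span of 677 bases that is longer than the probe) was -1.29, 0.13 and -1.19 in the NP rats of day 21 and 0.07, 1.15 and -0.74 in the LP rats. At day 28 it was -1.75, -0.55 and -0.25 in NP and -0.06, 0.30 and -0.15 in LP rats. NP 5a lay among the LP rats at day 21, and the groups overlapped, whereas at day 28 every LP rat lay above every NP rat, the nearest values being -0.15 and -0.25. From the lowest to the highest array, Krt14 spanned 2.90 log2 units or 7.45-fold, a range wider than that of 93.4% of the tested probes. The median range over the tested probes was 0.89.

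Krt5, whose probe has no position in the array's annotation, had log2 signals of -1.70, -0.20 and -1.56 in NP and -0.21, 0.88 and -1.19 in LP rats at day 21. At day 28 the values were -2.64, -0.66 and -0.70 in NP and -0.76, -0.17 and -0.42 in LP rats. The same rats were high and low as for Krt14, but the groups overlapped at both days, since LP 4f lay below NP 5f and NP 6f. Krt17 encodes a keratin of basal cells and of epidermal appendages. It had log2 signals of -2.43, -1.13 and -2.21 in NP and -1.06, -0.11 and -1.57 in LP rats at day 21, and of -3.16, -1.60 and -1.56 in NP and -1.36, -0.95 and -1.52 in LP rats at day 28 (probe at chr10:89187269-89187328, minus strand). The groups of day 28 did not overlap for Krt17 either, with a gap between -1.52 and -1.56.

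Over the 12 arrays the 3 keratins were high and low together, with a Pearson r of 0.98 for each of the 3 pairs, 0.98 to 1 within day 21 and 0.96 to 0.99 within day 28. These correlations describe arrays that share RNA and scaling and carry no test. Keratin genes are alike in sequence, and each of the 3 was read by a single probe. The 3 probe sequences are shown because all keratin values above rest on them, and whether a probe also binds a related transcript was not tested.
Krt5 probe: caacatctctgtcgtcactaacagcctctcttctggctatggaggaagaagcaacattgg
Krt14 probe: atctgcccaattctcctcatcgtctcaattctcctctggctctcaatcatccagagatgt
Krt17 probe: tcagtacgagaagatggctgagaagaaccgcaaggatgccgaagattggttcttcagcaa

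**Figure D1:**
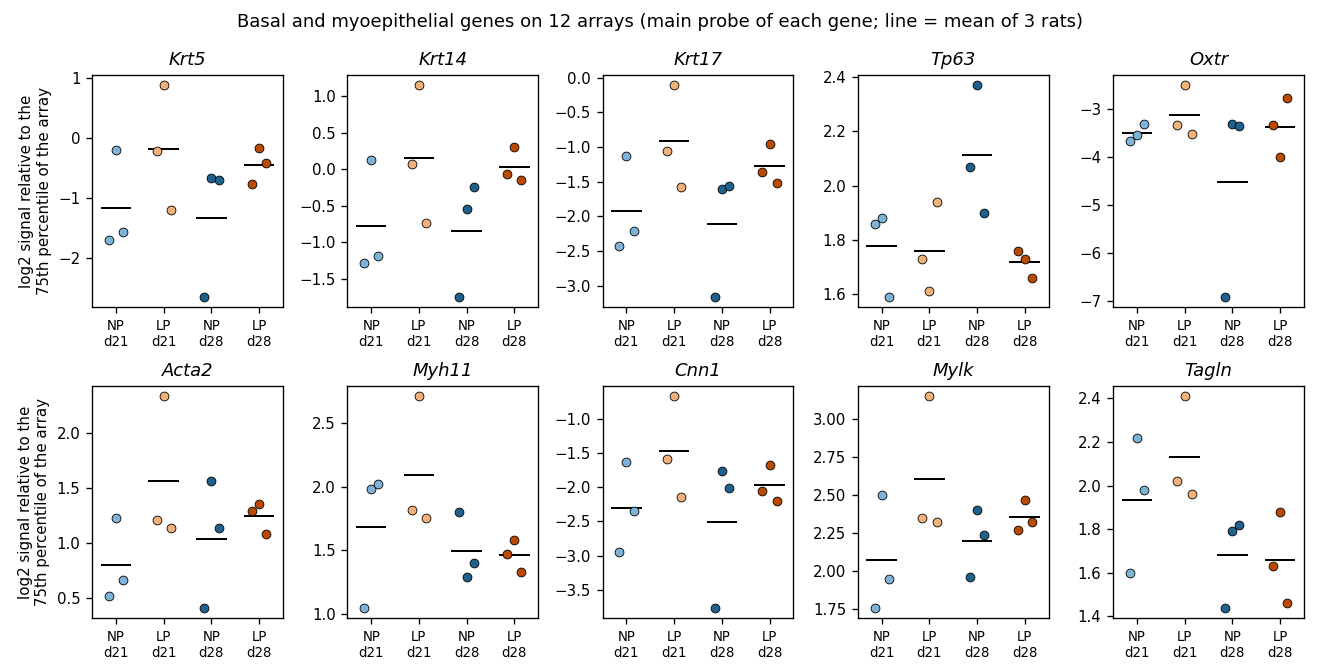
Log2 signal, relative to the 75th percentile of the array, of the main probe of each of the 10 genes (y axis, a separate scale for each gene) in the 4 groups (x axis), each point 1 rat and each line the mean of 3. LP 6a at day 21 is the highest point for every gene but Tp63, and NP 4f at day 28 is the lowest for 7 genes.

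Tp63 encodes p63, the transcription factor that maintains basal cells, and its 2 probes gave different pictures. On probe A_43_P15281 (chr11:76900656-76900714 of rn4, minus strand) the log2 signals were -2.28, -0.90 and -2.18 in NP and -0.78, 0.31 and -1.35 in LP rats at day 21, and -2.13, -1.04 and -1.17 in NP and -1.11, -0.68 and -0.80 in LP rats at day 28. This probe followed the keratins, with an r of 0.96 with Krt14 over the 12 arrays. The groups overlapped at day 21, where NP 5a lay above LP 7c, and at day 28, where NP 5f lay above LP 4f.
On probe A_64_P008351 (chr11:76923148-76923207, minus strand), which is the brighter and therefore the main probe of the gene, the log2 signals were 1.86, 1.88 and 1.59 in NP and 1.73, 1.61 and 1.94 in LP rats at day 21. At day 28 they were 2.07, 2.37 and 1.90 in NP and 1.76, 1.73 and 1.66 in LP rats. Its range of 0.78 was below the median of all tested probes, LP 6a was not its highest array, and the r with Krt14 was -0.40 and with the other Tp63 probe -0.25. At day 28 every LP rat lay below every NP rat on this probe, the reverse of the order on Krt14 and Krt17.
The array's annotation assigns the 2 probes to different transcripts of Tp63. The sequence of the main probe is shown because it holds a run of 6 CAG triplets, written in capitals. A run of at least 6 such triplets occurs in 7 of the 30367 gene probes (0.0231%). The part of this run, or of transcript choice, in the disagreement was not tested. Whether this probe reads Tp63 at all could not be settled, and every value given for its main probe below carries that doubt.
Tp63 probe A_64_P008351: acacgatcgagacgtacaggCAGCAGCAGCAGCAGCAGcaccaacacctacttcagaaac

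**Figure D2:**
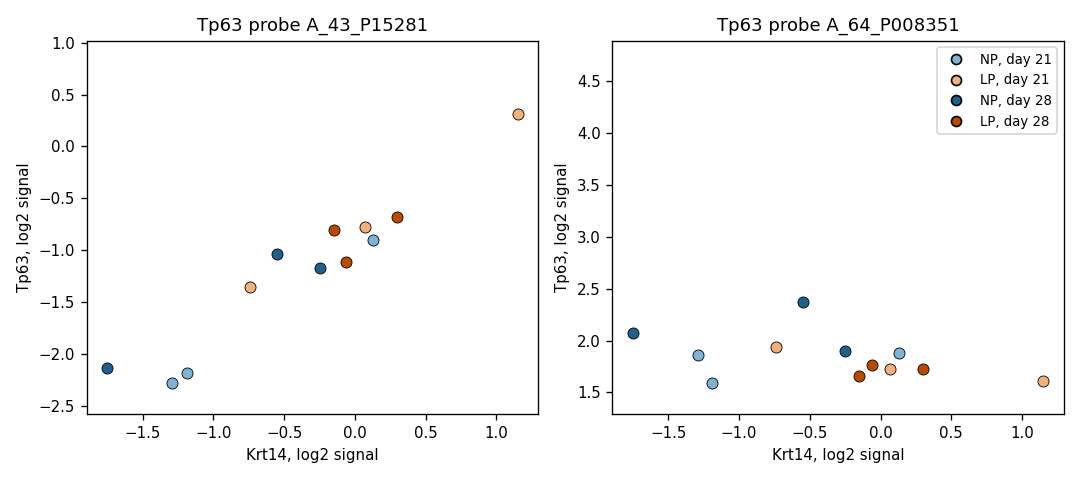
Log2 signal of the 2 Tp63 probes (y axes, of equal span) against that of Krt14 (x axes) on the 12 arrays, 1 point per rat, coloured by group. Probe A_43_P15281 rises with Krt14 (r = 0.96), and probe A_64_P008351 does not (r = -0.40).

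Oxtr encodes the oxytocin receptor, through which suckling makes the myoepithelium contract. Its log2 signals were -3.66, -3.54 and -3.32 in NP and -3.33, -2.51 and -3.52 in LP rats at day 21 (probe at chr4:148314115-148314174, minus strand). At day 28 they were -6.91, -3.32 and -3.36 in NP and -3.33, -3.99 and -2.78 in LP rats. The value of NP 4f was the only one of the 12 that was not well above background, so that its size is uncertain and it alone sets the wide range of this gene (4.40 log2 units). Without NP 4f the day 28 difference between LP and NP was -0.02, against 1.17 with it. The remaining 11 values overlapped across the 4 groups.

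Of the smooth muscle genes, Acta2 encodes the smooth muscle actin by which myoepithelium is commonly stained. Its log2 signals were 0.52, 1.23 and 0.66 in NP and 1.21, 2.34 and 1.14 in LP rats at day 21, and 0.41, 1.57 and 1.14 in NP and 1.29, 1.36 and 1.08 in LP rats at day 28. NP 5a lay among the LP rats at day 21 and NP 5f above all of them at day 28, and the groups overlapped at both days. Its probe has no position in the array's annotation.
Cnn1, encoding the actin-binding protein calponin, had the widest range of the 5 genes, 8.56-fold from NP 4f to LP 6a (probe at chr8:21219991-21220050, plus strand). It stood at -2.94, -1.63 and -2.35 in NP and -1.59, -0.67 and -2.14 in LP rats at day 21, and at -3.76, -1.77 and -2.01 in NP and -2.05, -1.67 and -2.20 in LP rats at day 28. Without NP 4f, its difference at day 28 was -0.08.
Mylk encodes the kinase that phosphorylates myosin light chain and so starts contraction. Its main probe ranged from 1.76 in NP 4a to 3.15 in LP 6a (chr11:67602541-67602600, minus strand). Its other probe, A_64_P154927 (chr11:67604486-67604545), ranged from -3.41 in NP 6a to -1.16 in LP 6a, with an LP against NP difference in the same direction at each day.

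Myh11, the heavy chain of smooth muscle myosin, kept another order. Its log2 signals were 1.05, 1.98 and 2.02 in NP and 1.82, 2.71 and 1.75 in LP rats at day 21, and 1.80, 1.29 and 1.40 in NP and 1.47, 1.58 and 1.33 in LP rats at day 28 (probe at chr10:775993-776052, plus strand). NP 4f, the lowest of day 28 for 8 of the 10 genes, was the highest of day 28 for Myh11, and NP 6a, low in the keratins, was the second highest of day 21. The second probe of the gene (chr10:769544-770044) also had NP 4f as its highest array of day 28, at -0.03, but the order of the other arrays was not the same, NP 5f being the lowest of day 28 on the main probe (1.29) and the second highest on the other (-0.07). The r of the 2 probes was 0.96 over the 12 arrays, 1 within day 21 and 0.45 within day 28.
Tagln, encoding the actin-binding protein transgelin, varied least of the 5, from 1.44 in NP 4f to 2.41 in LP 6a, a range of 0.97 (probe at chr8:48902736-48903116, minus strand, a span of 381 bases). At day 28 its LP values of 1.63, 1.88 and 1.46 lay on both sides of the NP values of 1.44, 1.79 and 1.82.

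At day 21 the mean log2 signal of the 3 keratins was 0.98 higher in LP than in NP rats, and that of the 5 smooth muscle genes 0.55 higher. The single differences were 0.94 for Krt14 (95% confidence interval -0.28 to 2.17), 1.01 for Krt17 (-0.14 to 2.16), 0.98 for Krt5 (-0.48 to 2.43) and 0.75 for Acta2 (-0.06 to 1.57). Of the 10 genes 9 were higher in LP rats by their means and Tp63 was lower by its main probe (-0.02), while its other probe was higher by 1.17. The median difference of the 10 genes was 0.64 and that of all tested probes 0.01. In limma's test 0 of the 10 genes had an adjusted p under 0.05, as had 0 of the 23209 tested probes (0%), and the lowest adjusted p of the genes was 0.861. The unadjusted p lay under 0.05 for 0 of the 10 genes by their main probes and for 1011 probes (4.36%). Counted over all 13 probes of the genes it lay under 0.05 for 2, the second probes of Mylk (difference 1.02, p 0.0208) and of Tp63 (1.17, p 0.0357), each with an adjusted p of 0.861 in limma. Without LP 6a these differences were 0.73 and 0.71, with an unadjusted p above 0.05 for both. For 0 of the 10 genes did the 3 LP and 3 NP rats separate, against 11.5% of the tested probes. Without LP 6a the keratin difference was 0.50 and the smooth muscle difference 0.25, and without NP 5a they were 1.42 and 0.76. The differences without LP 6a were 0.45 for Krt14, 0.61 for Krt17, 0.45 for Krt5, 0.37 for Acta2 and 0.06 for the main probe of Tp63, so that all 10 genes were then higher in LP rats, with a median of 0.31.

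At day 28 the mean of the keratins was 0.86 higher in LP than in NP rats, and that of the smooth muscle genes 0.17 higher. Krt14 differed by 0.88 (95% confidence interval -0.34 to 2.11), Krt17 by 0.83 (-0.32 to 1.98) and Krt5 by 0.88 (-0.57 to 2.33), whereas Acta2 differed by 0.20 (-0.61 to 1.02), Tagln by -0.02 (-0.46 to 0.41) and Myh11 by -0.04 (-0.73 to 0.65). Over the 10 alternatives other than leaving out an array, Myh11 ranged from -0.17 to 0.20 (normexp background correction) and Tagln from -0.14 to 0.17. The keratin mean then ranged from 0.74 to 1.46 and the smooth muscle mean from 0.04 to 0.48. The main probe of Tp63 had the lowest p of the 10 genes, with a difference of -0.40 (-0.71 to -0.08), an unadjusted p of 0.0191 and an adjusted p of 0.581 in limma, while the other Tp63 probe differed by 0.58 in the opposite direction, or by 0.24 without NP 4f. Of the 10 genes 7 were higher and 3 lower in LP rats by their means, with a median of 0.37 against -0.05 over all tested probes. By the adjusted p of limma, 0 of the 10 genes and 0 of all tested probes (0%) passed 0.05 at this day, while the unadjusted p lay under 0.05 for 1 of the 10 genes, Tp63, and for 8.07% of the probes. The rats of the diets separated for 3 of the 10 genes, Krt14 and Krt17 upward and Tp63 downward in LP rats, against 16.8% of all tested probes. Without NP 4f the keratin difference was 0.32 and the smooth muscle difference -0.04, and 5 genes were higher and 5 lower, with a median of 0.01. Krt14 then differed by 0.43, Krt17 by 0.30, Krt5 by 0.23 and Acta2 by -0.11, and the main probe of Tp63 by -0.42.

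Between the days, 0 of the 10 genes passed the test in either diet. In NP rats the mean of the keratins differed by -0.14 and that of the smooth muscle genes by -0.06 between day 28 and day 21, and in LP rats by -0.25 and -0.43. In NP rats 3 of the 10 genes were higher and 7 lower at day 28, with a median of -0.18 against 0.03 over all probes. In LP rats all 10 were lower by their means, with a median of -0.30 against -0.02. Without LP 6a the keratin difference in LP rats was 0.22, so that its direction rests on that array, and without NP 4f that in NP rats was 0.40. The smooth muscle difference was -0.13 in LP rats without LP 6a, and in NP rats 0.15 without NP 4f, 0.16 without NP 5a and -0.28 without NP 4a. With the array in question left out, 6 of the 10 genes were higher at day 28 in LP rats (median 0.03) and 8 in NP rats (median 0.35).
The main probe of Tp63 was higher at day 28 in every NP rat than in any NP rat of day 21 (difference 0.34, adjusted p 0.363 in limma), and differed by -0.04 in LP rats. Without NP 5f the difference in NP rats was 0.20. Tagln was lower at day 28 in every LP rat (difference -0.47, adjusted p 0.466), as was Myh11 on its main probe (-0.63, adjusted p 0.537) and on its second (-0.79, unadjusted p 0.0406, adjusted p 0.473 in limma). Without LP 6a these differences were -0.33 for Tagln and -0.32 and -0.46 for the Myh11 probes, and the unadjusted p was above 0.05 for each. In the same comparison 8 of 10 pericyte and vascular smooth muscle genes were lower at day 28 (median -0.35), 3 of them with an unadjusted p under 0.05 (Rgs5, Notch3 and Kcnj8), and 9 of 9 endothelial genes (median -0.25), 5 of them with an unadjusted p under 0.05 (Tek, Tie1, Emcn, Cldn5 and Vwf), with 0 of either past an adjusted p of 0.05 in limma. Without LP 6a these medians were -0.32 and -0.33. Macrophage genes were higher at day 28 in LP rats for 8 of 8 (median 0.52, or 0.36 without LP 6a), 4 of them with an unadjusted p under 0.05 (Cd68, C1qa, C1qb and Aif1). Lymphocyte genes were higher for 9 of 9 (median 1.94, or -0.10 without LP 6a), skin genes lower for 8 of 8 (median -0.92, or -0.30) and skeletal muscle genes lower for 11 of 12 (median -0.86, or 0.90). Of the skin genes 1, Sbsn, had an unadjusted p under 0.05 (-1.01). Krt10, Flg, Krt27 and Krt1 of this list were well above background on only 3, 4, 4 and 7 of 12 arrays. The size of the skin medians is therefore uncertain. In NP rats, by their means, skeletal muscle genes were lower at day 28 for 12 of 12 (median -1.81, or -1.34 without NP 4f and -0.96 without NP 6a). Lymphocyte genes were higher for 9 of 9 (median 0.26). Of both lists 0 genes had an unadjusted p under 0.05. Endothelial genes were lower for 7 of 9 (median -0.09), 2 of them with an unadjusted p under 0.05 (Cdh5 and Tie1). Skin genes were lower for 5 of 8 (median -0.47, or 0.46 without NP 5a), 1 of them with an unadjusted p under 0.05 (Sbsn, -1.06). Among adipocyte genes Cfd was higher (0.71) and Lep lower (-1.17) with such a p. Of all these genes 0 had an adjusted p under 0.05 in limma. The part of these cells in the differences between the days was not tested. In NP rats 0 of the 10 genes had an adjusted p under 0.05 in limma, against 58 of the tested probes (0.25%). The unadjusted p lay under 0.05 for 1 gene, Tp63, against 12.8% of the probes (0 genes without NP 4f), and the days separated for 1 gene against 18.7%. In LP rats 0 of the 10 genes and 0 probes (0%) passed 0.05 by the adjusted p of limma, 1 gene by its main probe, Tagln, and 10.1% of the probes had an unadjusted p below it (0 genes without LP 6a), and the days separated for 2 genes against 18.7%.

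Whether the diet difference itself depended on the day was tested as an interaction. The LP against NP difference was lower at day 28 than at day 21 by the estimates of 9 of the 10 genes. This count was 5 without LP 6a, 10 without NP 4f and 9 without both arrays. The median estimate of the 10 genes was -0.26. Of all tested probes 42.4% had a higher difference at day 28 than at day 21, with a median of -0.04. The interaction estimates were -0.06 for Krt14 (95% confidence interval -1.79 to 1.67) and -0.55 for Acta2 (-1.70 to 0.60). That of Krt14 was 0.43 without LP 6a and -0.52 without NP 5a. That of Acta2 was -0.16 without LP 6a and -0.86 without NP 4f. For 0 of the 10 genes and 0 of all tested probes (0%) was the adjusted p under 0.05 in limma, and 0 of the genes and 2.26% of the probes had an unadjusted p under 0.05. The lowest adjusted p of the 10 genes was 1.

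The keratins and the smooth muscle genes were then set against each other array by array. The keratin mean ran from -2.51 in NP 4f to 0.64 in LP 6a, an 8.9-fold range, and the smooth muscle mean from 0.37 to 1.99 in the same rats, a 3.07-fold range. Their Pearson r over the 12 arrays was 0.91 and Spearman's rho 0.82. The r was 0.96 within the 6 arrays of day 21 and 0.92 within those of day 28, where rho was 0.49, and 0.93 for deviations from the group means. At day 28 NP 4f stood apart in both means, at -2.51 and 0.37. The other arrays of that day lay between -0.94 and -0.28 and between 0.80 and 1.12. The r of day 28 was not computed without NP 4f, and may rest on it. Without LP 6a and NP 4f, r was 0.79 over 10 arrays. These correlations are descriptions without a test.
The difference between the keratin and the smooth muscle mean has no meaningful zero, but can be followed from array to array. It was -2.21, -1.66 and -2.51 in NP and -1.57, -1.35 and -2.17 in LP rats at day 21, and -2.88, -1.99 and -1.75 in NP and -1.65, -1.40 and -1.49 in LP rats at day 28. The keratin mean spread more widely over the arrays than the smooth muscle mean, although Cnn1 by itself spanned more than Krt14 and Krt17. At day 28 every LP rat lay above every NP rat in this difference, and at day 21 NP 5a lay between the LP rats. Of all tested probes, taken singly, 16.8% separated the diets at day 28. The difference contains Krt14 and Krt17, which separated there too, and is no independent result.

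**Figure D3:**
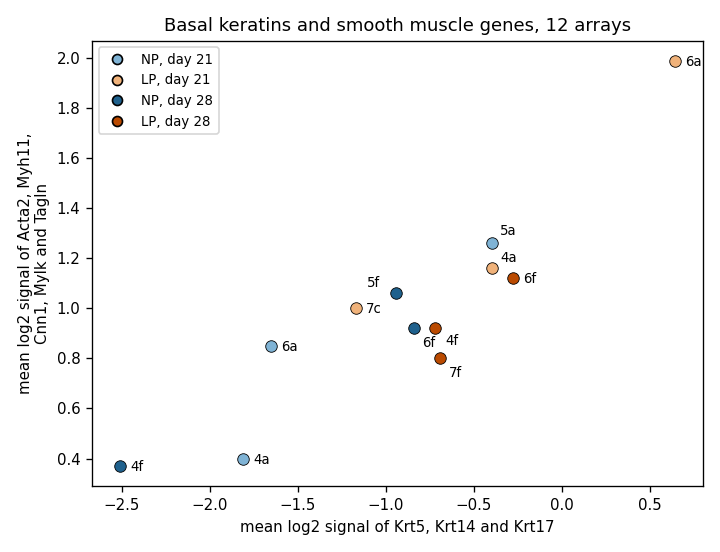
Mean log2 signal of the 5 smooth muscle genes (y axis) against that of the 3 keratins (x axis) on the 12 arrays, each point 1 rat with its replicate code, coloured by group. The arrays run from NP 4f at the lower left to LP 6a at the upper right (r = 0.91).

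As the single-gene form of this comparison, Krt14 was set against Acta2. Over 12 arrays r was 0.89 (permutation p 0.00015, adjusted 0.00045) and rho 0.80 (permutation p 0.00241, adjusted 0.00417), with p-values adjusted over 3 relations. The permutations treat the arrays as exchangeable across the diets and, over 12 arrays, across the days. Their p-values are set against no relation at all, not against the correlations of other genes on these arrays. Within day 21, r was 0.95 (exact permutation p 0.00139, adjusted 0.00208) and rho 1 (exact permutation p 0.00278, adjusted 0.00417). Within day 28, r was 0.79 (exact permutation p 0.11, adjusted 0.11) and rho 0.37 (exact permutation p 0.497, adjusted 0.497). Without the 2 arrays with the most extreme Krt14 values, r was 0.74 over 10 arrays and 0.87 over the 4 left of day 21. Over the 4 left of day 28, without NP 4f and LP 6f, it was -0.75. These 2 arrays were left out together, and the part of each was not computed. At day 28 NP 4f was the lowest array in both genes, at -1.75 and 0.41, with the next lowest at -0.55 and 1.08.
Within the smooth muscle genes, the 10 pairs had a median r of 0.74, with a lowest of 0.48. Within day 28 they ran from -0.76 to 0.96, the lowest values being those of Myh11, whose r with Krt14 within that day was -0.58. Cnn1 and Mylk had an r of 0.92 and 0.90 with Krt14 over the 12 arrays, and Tagln 0.64.

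The genes most like Krt14 over the 12 arrays, among 20189 other genes by their brightest tested probe, were RGD1303271 (r = 0.986), Kcnk1 (0.984), Lrrc8e (0.979), Perp (0.978) and Bspry (0.978). Those most like Acta2 were Gjb2 (0.968), Cdh3 (0.967), Frem3 (0.955), Gng13 (0.954) and Shroom3 (0.953). Perp encodes a membrane protein of desmosomes, Gjb2 a gap junction protein and Cdh3 the P-cadherin of basal cells. For all 10 of these genes r was at least 0.94 within day 21 and at least 0.93 within day 28. They were picked by their r over these same arrays, so that high values within the days follow in part from the choice.

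The mean of a list of other basal layer genes followed the keratins over the arrays. Of 15 tested genes of this list, which holds integrins, laminin chains and Egfr among others, 13 were higher in LP rats by their means at day 21 (median 0.29) and 13 at day 28 (median 0.28), with 0 past an adjusted p of 0.05 in limma and 0 with an unadjusted p under 0.05 at either day. Their summed level lay between 26.2 and 38.3 on every array, on a scale where the 75th percentile of an array is 1. At 34.2 the summed level was not low in NP 4f, the array with the lowest keratin mean. Bright genes weigh most in this sum, and Cxcl14, the brightest of the list, was at its highest there (4.44). The mean log2 signal of the list, in which every gene weighs the same, was -1.42 in NP 4f, the lowest of the 12 arrays. The mean of the list had an r of 0.99 with the keratin mean and 0.94 with the smooth muscle mean over the 12 arrays. Its brightest gene, the chemokine gene Cxcl14, differed by -0.13 at day 21 and -0.11 at day 28, but by 0.00 at day 21 without NP 5a and by 0.13 at day 28 without NP 4f. The median difference of the list was 0.08 at day 21 without LP 6a and 0.06 at day 28 without NP 4f, with 12 and 10 genes higher. Between the days, 12 of the 15 were lower at day 28 in LP rats (median -0.21). Of these 1, Itgb1, had an unadjusted p under 0.05, against 10.1% of all tested probes. In NP rats 10 were lower (median -0.07). Without LP 6a, 8 were higher in LP rats (median 0.12), and without NP 4f, 11 in NP rats (median 0.11). The desmosomal gene Dsc3 was well above background on 0 of 12 arrays.
Other contractile genes were mixed in direction. Of 20 tested genes 13 were higher in LP rats at day 21 (median 0.07) and 9 at day 28 (median -0.05), with 0 past an adjusted p of 0.05 in limma. At each day 1 of the 20 had an unadjusted p under 0.05, against 4.36% and 8.07% of all tested probes, namely Mkl1 at day 21 (-0.30) and Myocd at day 28 (-0.40). The mean of the list had an r of 0.69 with the keratin mean and 0.88 with the mean of the 5 smooth muscle genes, and of 0.12 and 0.64 without LP 6a and NP 4f. The brightest, the myosin light chain gene Myl6, differed by 0.03 at day 21 and -0.02 at day 28. In LP rats 17 of the 20 were lower at day 28 than at day 21 (median -0.28, or -0.16 without LP 6a), 3 of them with an unadjusted p under 0.05 (Ppp1r14a, Flna and Actn1), against 10.1% of all tested probes. In NP rats 17 were lower as well (median -0.11), 2 of them with an unadjusted p under 0.05 (Tgfb1i1 and Flna), against 12.8% of the probes. Without LP 6a the count in LP rats was 18, and without NP 4f that in NP rats was 11, with 9 higher and a median of -0.04.

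Markers of luminal epithelium were high and low in the same rats as the basal genes. All 16 were higher in LP rats at day 21 (median 0.79) and 14 at day 28 (median 0.50), 0 past an adjusted p of 0.05 in limma and 4 at day 21 with an unadjusted p under 0.05 (Cldn3, Cldn7, Foxa1 and Ehf), against 4.36% of all tested probes. The mean of the list had an r of 0.97 with the keratin mean over the 12 arrays and 0.99 within each day. Its summed level on the same scale was 17, 33.6 and 17.3 in NP and 38.6, 63.5 and 22.5 in LP rats at day 21, and 15.4, 31.7 and 29.7 in NP and 36.6, 38.5 and 34 in LP rats at day 28. LP 6a was again the highest array and NP 4f the lowest. The brightest gene, the luminal keratin gene Krt18, differed by 0.81 at day 21 and 0.64 at day 28, or by 0.48 without LP 6a and 0.23 without NP 4f. The median of the list was then 0.46 and 0.23. The part of the amount of epithelium in a sample in the differences above was not tested.

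Markers of other tissues also varied between rats. Lymphocyte genes were lower in LP than in NP rats for 9 of 9 at day 21 (median -2.30) and at day 28 (median -0.61), and their mean had an r of -0.64 with the keratin mean. Most of the difference at day 21 came from LP 6a, without which the median was -0.31 and the r -0.36, and without NP 4f as well the r was -0.15. Their summed level was 0.279 in LP 6a, where the T cell gene Cd3d stood at -3.04, against 11.4 to 28.1 on the other arrays, where Cd3d stood between 1.98 and 3.36. Skeletal muscle genes were lower in LP rats for 12 of 12 at day 21 (median -1.23) and for 8 at day 28 (median -0.29), but the direction at day 21 rests on LP 4a, without which 11 were higher (median 0.53). At day 28 the direction rests on single arrays too, with 12 higher without LP 4f (median 0.86), 9 higher without LP 7f (0.60) and 12 lower without LP 6f (-2.30). They had summed levels of 127 in LP 6a, 103 in LP 6f and 86.5 in NP 6a and of at most 23.1 elsewhere, and an r of 0.16 with the keratin mean, or -0.16 without LP 6a and -0.39 without LP 6a and NP 4f. Their brightest gene was Mylpf, which reached 4.93 in LP 6a. Genes of skin keratinocytes and hair follicles, which use Krt5, Krt14 and Krt17 too, had summed levels of 0.161 to 2.6, highest in LP 7c and LP 6a, with Sbsn as the brightest gene and Dsg1b well above background on 0 arrays. Of their 8 tested genes 7 were higher in LP rats at day 21 (median 0.75) and 4 at day 28 (median 0.10), but at day 21 only 3 without LP 6a (median -0.42) and at day 28 only 3 without NP 4f (median -0.04). The mean of the skin list had an r of 0.49 with the keratin mean, and of 0.08 without LP 6a and NP 4f. Of this list Krt10, Flg, Krt27 and Krt1 were well above background on only 3, 4, 4 and 7 of 12 arrays. The counts, medians and r of the skin list therefore rest in part on values near background, and their size is uncertain. The part of these tissues in the results was not tested.
The vascular lists did not share the direction of the keratins over the arrays. Pericyte and vascular smooth muscle genes had an r of -0.14 with the keratin mean and 0.12 with the smooth muscle mean, or -0.53 and -0.19 without LP 6a and NP 4f. Of these 10 genes, 9 were higher in LP rats at day 21 (median 0.05) and 3 at day 28 (median -0.10). The direction at day 21 rests on LP 7c, without which 4 were higher and 6 lower (median -0.04), and the median at day 28 was -0.24 without LP 4f and -0.04 without LP 7f. Their brightest gene, Mcam, differed by -0.10 and 0.02. Endothelial genes had an r of -0.50 and -0.16 with these means, and of -0.72 with the keratin mean within day 21 and -0.81 within day 28, or of -0.53 with the keratin mean and 0.03 with the smooth muscle mean without LP 6a and NP 4f. In LP rats 1 of the 9 was higher at day 21 (median -0.05) and 1 at day 28 (median -0.29, or -0.09 without NP 4f). Without LP 6a, 4 were higher and 4 lower at day 21 (median 0.00). At day 28, 2 of the 9 were lower with an unadjusted p under 0.05, Tie1 (-0.46) and Cldn5 (-0.69), against 8.07% of all tested probes. The brightest endothelial gene, Kdr, differed by 0.00 at day 21 and -0.23 at day 28, or by -0.02 at day 28 without NP 4f. The r with the keratin mean was 0.60 for fibroblast genes (brightest Col1a1), -0.46 for adipocyte genes (Cfd) and -0.30 for macrophage genes (C1qb), and 0.01, -0.66 and 0.20 without LP 6a and NP 4f. The median LP against NP differences of these 3 lists were 0.08, -0.06 and -0.26 at day 21 and 0.15, 0.03 and 0.15 at day 28, and 0.01, -0.07 and 0.00 at day 21 without LP 6a and -0.02, 0.09 and 0.08 at day 28 without NP 4f. Of the 8 fibroblast genes 1, Dpt, was higher in LP rats at day 28 with an unadjusted p under 0.05 (1.05), against 8.07% of all tested probes. In limma, 0 genes of any of the 11 lists had an adjusted p under 0.05 in any of the 5 comparisons.

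Smooth muscle genes are known to be switched on by serum response factor through a promoter element called the CArG box. RefSeq promoter sequences of build GRCr8 could be matched to 6 of the 10 genes, 3 of them smooth muscle genes, and the stretch directly before the gene start was searched, of the same length for every gene as the Acta2 sequence that follows. A box farther from the gene start would not have been found. The box in its strict form was found in 0 of these 6 and in 412 of 27457 promoters (1.5%). With 1 C or G allowed in its middle, it was found in Acta2 alone among the 6, at 2 places, and in 7.97% of all promoters. The Acta2 promoter is shown because Acta2 alone held relaxed matches, with both places in capitals (chr1:241172504-241172753 of GRCr8, minus strand). These matches describe the sequence only.
Acta2 promoter: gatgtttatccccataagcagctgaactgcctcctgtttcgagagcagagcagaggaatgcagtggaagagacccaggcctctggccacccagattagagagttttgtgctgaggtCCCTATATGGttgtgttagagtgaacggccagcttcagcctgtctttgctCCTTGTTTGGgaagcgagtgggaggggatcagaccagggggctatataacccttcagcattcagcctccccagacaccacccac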

How the data were processed

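The authors hybridised Cy3-labelled RNA of 12 rats to Agilent arrays and deposited the scanner intensity of every spot, processed by Feature Extraction 10.7.3.1 (background subtracted, not scaled between arrays). A table of processed signal that they deposited as well equals the scanner signal times a factor fixed for each array (largest relative deviation 6.56e-05), and served as an alternative. Control spots (4259 per array) and outlier spots (259 to 766) were left out, and log2 intensity was taken relative to the 75th percentile. Spots of a probe were averaged. A probe was well above background when at least 0.5 of its spots were, and 23209 probes so on at least 3 arrays entered a two-sided test in limma (version 3.58.1, R version 4.3.3), in 1 fit over the 4 groups, with Benjamini-Hochberg adjustment over all tested probes. The error model of Rosetta Resolver, used in the study, was not used here.

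The main probe of a gene was that with the highest mean log2 signal. Other probes were named where their difference was opposite. Of each other list the brightest gene was named, with any gene past an adjusted p of 0.05, and for Krt14 and Acta2 the 5 genes with the highest r. The 2 Mylk probes, the second Myh11 probe, Dsc3, Dsg1b and those genes of the lists that are given with an unadjusted p under 0.05 were named after their values were seen. The lists were basal epithelium, smooth muscle, luminal epithelium, skin, pericytes, endothelium, skeletal muscle, adipocytes, fibroblasts, lymphocytes and macrophages, and 2 further lists were not analysed here. The 10 genes and the lists were chosen with earlier results of these data known. Probe positions are those of the array annotation (rn4). The correlation of Krt14 with Acta2 was tested by 1e+05 permutations over 12 arrays and all orders within a day. The fit was tested on simulated data for LP against NP at day 21. It recovered 109 of 200 changes of 1 log2 unit (4 false calls) and 167 of 200 changes of 2 (12 false calls). The changed probes were drawn at random from the tested probes, whose median standard deviation within groups was 0.23. That of Krt5, Krt14 and Krt17 was 0.88, 0.74 and 0.70. The recovered share therefore cannot be carried over to the keratins. The number of arrays limits the precision. Alternatives were limma's normexp with an offset of 50, quantile normalization, other filters, the deposited table, the mean of a gene's probes, a replicate block, the row on the slide, only the groups compared, trend and robust estimation, and leaving out each array. For the counts of genes and for the lists, leaving out arrays was added after the values were seen.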

Additional observations from a re-analysis of the deposited data

How the results depend on the processing

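Under every alternative run, 0 of the 10 genes had an adjusted p under 0.05 in any comparison. The keratin means were 0.85 to 1.57 higher in LP rats at day 21 and 0.74 to 1.46 at day 28 over the 10 alternatives other than leaving out an array, and the smooth muscle means 0.42 to 0.85 and 0.04 to 0.48. The r of the keratin with the smooth muscle mean was 0.89 to 0.92 under 4 alternatives and 0.87 to 0.93 when an array was left out.

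The count of all probes with an adjusted p under 0.05 between the days in NP rats (58) was 0 with no filter, 0 with the replicate block, 0 with only the 2 groups compared, 36 with the row on the slide, 88 with probes well above background on all 12 arrays and 91 with trend and robust estimation, and 0 to 31 when an array was left out. In LP rats it was 6 with normexp and 1 with only the 2 groups compared, and 0 to 4 without an array. The cause was not tested.

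Replicate numbers are shared between diets and days. In the check of pairing, deviations of same-numbered arrays correlated by 0.09 and 0.13 between the diets at day 21 and 0.10 and 0.09 at day 28, with only 2 shared numbers a day. Between the days they correlated by 0.03, 0.17 and 0.14 in NP and 0.38, 0.21 and -0.06 in LP rats. So few pairs cannot settle whether same-numbered rats are related, and the labels do not say. The main fit did not pair the samples by these numbers. With the replicate block, the LP against NP difference averaged over the days rests on the arrays numbered 4 and 6, while its split by day uses all 12 arrays. The keratin difference was 1.57 at day 21 and 1.46 at day 28, with 0 probes past the threshold. Under the block the sign turned for Tp63 at day 21 (0.04) and, at day 28, for Myh11 (0.10 and, on its second probe, 0.11) and Tagln (0.17), and the cause was not tested.

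The sign of other differences turned too. LP against NP at day 28 was 0.20 for Myh11 with normexp and -0.01 for Mylk with the row on the slide. Krt14 between the days in NP rats was 0 with normexp. With the probes of a gene averaged, Tp63 was 0.58 higher in LP rats at day 21 and 0.09 at day 28, against -0.02 and -0.40 on its main probe. These turns, and those below, were of differences without an adjusted p under 0.05, and their cause was not tested.

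The sign of the following differences turned when an array was left out. LP against NP at day 21 ranged from -0.11 to 0.06 for Tp63. At day 28 it ranged from -0.11 to 0.47 for Acta2, -0.08 to 0.92 for Cnn1, -0.14 to 0.11 for Myh11, -0.02 to 1.77 for Oxtr and -0.14 to 0.08 for Tagln. The days in NP rats differed by -0.52 to 0.47 for Krt5, -0.37 to 0.39 for Krt14, -0.46 to 0.34 for Krt17, -1.63 to 0.16 for Oxtr, -0.03 to 0.55 for Acta2, -0.58 to 0.42 for Cnn1 and -0.03 to 0.35 for Mylk. In LP rats they differed by -0.78 to 0.26 for Krt5, -0.58 to 0.37 for Krt14, -0.69 to 0.04 for Krt17, -0.12 to 0.04 and -0.63 to 0.20 for the main and other Tp63 probe, -0.54 to 0.07 for Oxtr, -0.53 to 0.07 for Acta2, and -0.39 to 0.02 and -0.46 to 0.01 for the Mylk probes. The interaction ranged from -0.75 to 0.43 for Krt5, -0.52 to 0.43 for Krt14, -0.71 to 0.22 for Krt17, -0.41 to 1.38 for Oxtr and -0.92 to 0.10 for Cnn1. For Oxtr, signal over background limits the day 28 values, as NP 4f was not well above it.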
